A study of Mus musculus with 4 samples.

Results

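The phagocyte NADPH oxidase genes described here are Cybb, Cyba, Ncf1, Ncf4, Rac1 and Rac2, 6 of the 27179 genes of the deposited table, chosen by name and matched by Entrez gene ID. RNA was sequenced from bone marrow cells of a mouse model of acute myeloid leukemia (AML), sorted as leukemia stem cells (LSCs, the cells held to sustain the disease) that carried yellow fluorescent protein, Mac-1 and c-Kit. The 4 samples came from 2 genotypes, wild type (2 samples) and B7-H4-null (2 samples), the latter lacking the B7 family ligand B7-H4 that restrains T cells, and all were of the C57BL/6 strain. The study asked how gene expression differs with the loss of B7-H4. The leukemia driver, the age of the mice and whether samples came from separate animals are not stated in the labels, and p-values therefore cover the spread among these 4 samples alone, whatever its source.

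The oxidase moves electrons from NADPH across a membrane to oxygen, which makes superoxide, and it is best known from the respiratory burst with which neutrophils and macrophages kill microbes. Its catalytic core, flavocytochrome b558, pairs the gp91phox chain encoded by Cybb with the p22phox chain encoded by Cyba. In resting cells cytosolic subunits, among them the p47phox protein (Ncf1) and the p40phox protein (Ncf4), stay in the cytosol and join the core on activation together with a GTP-bound Rac protein. Rac2 is the Rac form of blood cells, whereas Rac1 is made in nearly all cells. Loss of one of the phox proteins causes chronic granulomatous disease.

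RefSeq promoter windows (GRCm38.p6, 250 bases before to 50 after a start site) matched 3 of the 6 genes, Cybb, Cyba and Ncf1. All windows that matched are shown, and Ncf4, Rac1 and Rac2 had none. Whether these sequences bear on the levels given below was not tested. Capitals mark GAGGAA, a form in which sites of the myeloid factor PU.1 occur, or GGGCGG, the GC box bound by Sp1, each on either strand. Other forms of PU.1 sites were not searched. The windows lie on the minus strand at chrX:9469275-9469574, chr8:122432891-122433190 and chr5:134229576-134229875. Those of Cyba and Ncf1 span the upstream end of the gene interval given below. The Cybb window lies inside its interval (9435252 to 9487766), so its start site is not at the upstream end of that interval.
Cybb: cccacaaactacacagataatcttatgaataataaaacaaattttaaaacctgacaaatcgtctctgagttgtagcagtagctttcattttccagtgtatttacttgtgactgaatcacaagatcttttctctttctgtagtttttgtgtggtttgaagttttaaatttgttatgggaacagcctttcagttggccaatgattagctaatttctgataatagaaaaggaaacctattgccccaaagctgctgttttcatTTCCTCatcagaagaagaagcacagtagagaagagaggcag
Cyba: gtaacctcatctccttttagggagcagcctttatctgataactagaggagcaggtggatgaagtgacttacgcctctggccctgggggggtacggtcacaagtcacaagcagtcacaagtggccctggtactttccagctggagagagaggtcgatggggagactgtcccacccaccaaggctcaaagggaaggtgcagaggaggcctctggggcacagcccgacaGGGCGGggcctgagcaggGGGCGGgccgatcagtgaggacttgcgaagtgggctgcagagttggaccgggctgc
Ncf1: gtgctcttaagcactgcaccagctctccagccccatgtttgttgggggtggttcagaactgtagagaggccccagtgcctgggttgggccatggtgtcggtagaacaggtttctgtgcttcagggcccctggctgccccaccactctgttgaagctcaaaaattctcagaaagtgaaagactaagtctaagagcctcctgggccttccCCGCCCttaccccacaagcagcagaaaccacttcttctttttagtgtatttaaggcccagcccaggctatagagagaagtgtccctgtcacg
The Cybb window held 1 GAGGAA match, read as TTCCTC at base 260 of the window, 9 bases past the start site, and no GC box. A CCAAT box, searched in the same way, began 56 bases before the Cybb start site. The Cyba window held 2 GC boxes, 24 and 6 bases before the start site, and Ncf1 held 1, 42 bases before it. GAGGAA was present in 28.3%, GGGCGG in 35.7% and CCAAT in 37.4% of all 32851 windows of this length, so none of these matches is rare, and a match is a description of letters only. The Cybb window was poor in G and C (35.3%), and those of Cyba and Ncf1 held 60.7% and 54% (all windows 53.8%).

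Expression is given in RPKM, reads scaled to gene length and library total. The totals behind the scaling, recovered from the steps between low values, were 9419425 to 10814448 reads. The 6 genes had 2033 to 13930 reads each per library, so counting error was at most 2.22%, small beside the SE of each difference given below. For Ncf4 the null replicates differed by less than counting error. Of the sort markers, the Mac-1 genes Itgam and Itgb2 stood at 114 and 86.9 and at 213 and 213 RPKM in the wild-type libraries. They were lower in both null libraries, at 82.9 and 59.9 and at 123 and 146 RPKM (limma adjusted p = 0.556 and 0.371), the direction that Cybb, Cyba and Rac2 also have below. Kit (c-Kit) stood at 7.19 to 24.0 RPKM. Vtcn1, which encodes B7-H4, had 0 reads in each wild-type library and 1 read in each B7-H4-null library, too few to check the genotype. Markers of lymphoid and erythroid cells were low: the summed levels of 10 T and NK cell genes were 1.47 to 2.26 RPKM and those of 9 erythroid genes 1.70 to 4.26 RPKM. The B cell factor Pax5 and the mast cell receptor chain Fcer1a were at 0 in every library. Summed levels of 8 genes each were 36.4 to 61.7 RPKM for B cells (mostly Cd79b) and 10.6 to 28.5 RPKM for megakaryocytes. The megakaryocyte sum overlapped between genotypes. The B cell sum was higher in both null libraries (36.4 and 46.9 against 58.9 and 61.7 RPKM, wild type first). The sum of 8 stroma and endothelium genes (mostly Pecam1) was higher there too, at 19.6 and 19.5 against 38.4 and 32.8 RPKM. Both null libraries were higher in the sum of 8 mast cell and basophil genes (40.5 and 38.2 RPKM in wild type, 176 and 69.0 RPKM in null). They were also higher in that of 8 dendritic cell genes (9.55 and 23.9 against 99.5 and 103 RPKM), which was almost all Flt3. The other dendritic cell genes stood at no more than 0.566 RPKM in any library. Of them, Xcr1, Ccr9 and Batf3 were lower in both null libraries and the rest overlapped between genotypes.

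All 6 genes were well expressed in every library, between the 89.3th and the 99.4th percentile of the 12107 tested genes by mean RPKM. Cyba was the most abundant, with a mean over the 4 libraries of 824 RPKM, followed by Rac2 at 409, Ncf1 at 243, Ncf4 at 234, Rac1 at 129.99 and Cybb at 72.7 RPKM. The lowest Cyba library (651 RPKM) exceeded the highest Rac2 library (462 RPKM), and the lowest Rac1 library (95.1 RPKM) exceeded the highest Cybb library (91.7 RPKM). The ranges of Rac2 and Ncf4 met, as did those of Ncf1 and Ncf4 and those of Ncf1 and Rac1. The catalytic chain was thus the least abundant of the 6 transcripts per length, and its partner p22phox the most abundant.

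**Figure D1:**
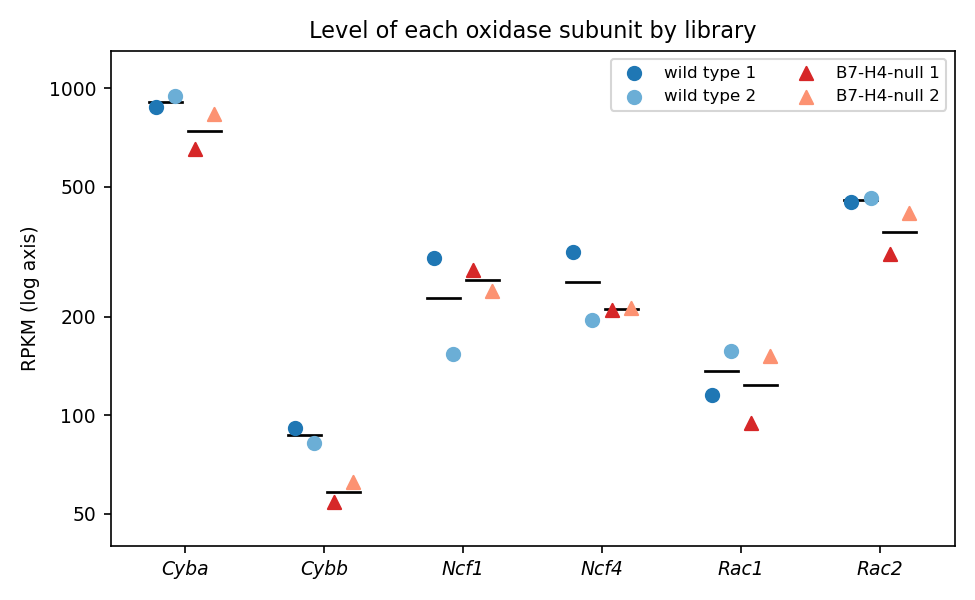
RPKM of the 6 oxidase genes on a log axis, 1 point per library (circles wild type, triangles B7-H4-null) with a bar at each genotype's mean of 2 libraries. Cybb, Cyba and Rac2 had both triangles below both circles, whereas for Ncf1, Ncf4 and Rac1 the genotypes overlapped.

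In B7-H4-null LSCs both chains of the membrane core and Rac2 lay below wild type in both libraries, at 0.674 to 0.816 times the wild-type mean, while Ncf1, Ncf4 and Rac1 overlapped between genotypes. None of the 6 passed the test: limma called 0 of 6 at an adjusted p of 0.05, 0 at an unadjusted p under 0.05, and 0 with limma-voom. Of all tested genes, limma called 0.0991%. The 3 genes without overlap are to be read against the 28.0% of tested genes that lay lower and the 16.0% that lay higher in both null libraries, and 0 of the 6 lay higher in both. The log2 difference was below 0 for 5 of 6 genes, as for 58.5% of all tested genes, and its median was −0.27, against −0.086 over all tested genes. In RNA from sorted cells, fewer cells of a type and less RNA per cell cannot be told apart.

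Cybb (gene ID 13058, chromosome X, 9435252 to 9487766) was read at 91.7 and 82.1 RPKM in the wild-type libraries (replicates 1 and 2, in that order throughout) and at 54.3 and 62.8 RPKM in the null ones. Both B7-H4-null libraries were below both wild-type libraries, and the gap between the groups was wider than that within either. The means were 86.9 ± 6.75 and 58.5 ± 5.98 RPKM (SD, n = 2), 1.48-fold apart. On the scale of log2(RPKM + 1), which is used for all differences, Cybb differed by −0.56 ± 0.248 (SE, 95% interval −1.15 to 0.03, limma adjusted p = 0.426). Leaving out any 1 library kept the difference between −0.67 and −0.46. In size it was the largest of the 6 genes in the fit over all 4 libraries, but not after quantile normalization (Cyba −0.64, Rac2 −0.61, Cybb −0.58) nor without wild type replicate 1 (Ncf1 0.74, Cybb −0.49).

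Cyba (gene ID 13057, chromosome 8, 122424771 to 122432940) was read at 873 and 943 RPKM in the wild-type libraries and at 651 and 830.4 RPKM in the null ones. B7-H4-null replicate 1 was the lowest, and replicate 2 lay close under wild type replicate 1. The means were 908 ± 49.5 and 741 ± 127 RPKM (SD, n = 2), with a log2 difference of −0.30 ± 0.281 (SE, 95% interval −0.97 to 0.37, limma adjusted p = 0.701). The difference was −0.13 when B7-H4-null replicate 1 was left out, −0.48 when replicate 2 was, and −0.64 after quantile normalization. Within each library Cyba exceeded Cybb by 9.52 and 11.5 times in wild type and by 12 and 13.2 times in B7-H4-null. In RPKM, Cyba thus exceeded Cybb by more in both null libraries, and a factor applied to a whole library leaves this ratio as it is. Quantile normalization is not such a factor, and with it the order turned, with Cybb at −0.58 and Cyba at −0.64. The log2 ratio of Cybb to Cyba differed by −0.27 (B7-H4-null minus wild type), and the SD between replicates was 0.153. Leaving out wild type replicate 1 brought it to −0.13, and leaving out replicate 2 to −0.40. With 2 against 2 libraries an exact two-sided permutation test cannot go below p = 0.333, so none was made.

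Ncf1 (gene ID 17969, chromosome 5, 134220053 to 134229628), the organizer that carries the cytosolic complex to the membrane once phosphorylated, was read at 303 and 154 RPKM in the wild-type libraries and at 278 and 239 RPKM in the null ones. The wild-type libraries differed 1.96-fold and enclosed both B7-H4-null libraries. The means were 228 ± 105 and 258 ± 27.1 RPKM (SD, n = 2), with a log2 difference of 0.25 ± 0.366 (SE, 95% interval −0.62 to 1.13, limma adjusted p = 0.816). Its direction rested on wild type: leaving out wild type replicate 1 gave a difference of 0.74, and leaving out replicate 2 gave −0.23. In GENCODE M21, 408 exon bases of Ncf1 lie opposite Gtf2ird2, whose level was 6.43 to 13.4 RPKM, and the library kit does not mark strand.

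Ncf4 (gene ID 17972, chromosome 15, 78244164 to 78262582), which binds the lipid phosphatidylinositol 3-phosphate of phagosomes, was read at 316 and 196 RPKM in the wild-type libraries and at 209.9 and 212 RPKM in the null ones. Wild type replicate 1 stood above the other 3 libraries, which lay between 196 and 212 RPKM. The means were 256 ± 85.1 and 211 ± 1.63 RPKM (SD, n = 2), with a log2 difference of −0.24 ± 0.31 (SE, 95% interval −0.98 to 0.50, limma adjusted p = 0.792). Leaving out wild type replicate 1 turned the difference to 0.11, and leaving out replicate 2 gave −0.58.

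In wild type, replicate 1 was above replicate 2 for both cytosolic subunits. The ratio of Ncf1 to Ncf4 was 0.957 and 0.787 in wild type and 1.32 and 1.13 in B7-H4-null. Ncf4 was the more abundant of the pair in both wild-type libraries, and Ncf1 in both B7-H4-null libraries. The log2 ratio was 0.49 higher in B7-H4-null, against an SD between replicates of 0.182, and stayed between 0.35 and 0.63 when any 1 library was left out. As above, this is a description with no test.

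Rac2 (gene ID 19354, chromosome 15, 78559169 to 78572783), which lies 297 kb from Ncf4 on the same chromosome, was read at 449 and 462 RPKM in the wild-type libraries and at 310.2 and 415 RPKM in the null ones. The wild-type libraries were nearly equal, and B7-H4-null replicate 1 was the lowest. The means were 456 ± 8.97 and 363 ± 74.4 RPKM (SD, n = 2), with a log2 difference of −0.34 ± 0.278 (SE, 95% interval −1.01 to 0.32, limma adjusted p = 0.658). Leaving out B7-H4-null replicate 1 gave −0.13, leaving out replicate 2 gave −0.55, and the value was −0.61 after quantile normalization.

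Rac1 (gene ID 19353, chromosome 5, 143505481 to 143528031) was read at 116 and 157 RPKM in the wild-type libraries and at 95.1 and 152 RPKM in the null ones. Replicate 1 was below replicate 2 in each genotype, and the genotypes overlapped. The means were 136 ± 29.1 and 124 ± 40.4 RPKM (SD, n = 2), with a log2 difference of −0.16 ± 0.326 (SE, 95% interval −0.94 to 0.62, limma adjusted p = 0.871). The direction turned when B7-H4-null replicate 1 (0.17) or wild type replicate 2 (0.06) was left out. In GENCODE M21, 2309 exon bases of Rac1 lie opposite Daglb, so reads of both genes cannot be told apart there. Daglb stood at 8.90 to 20.04 RPKM, 10.1% of Rac1 in means.

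Rac2 exceeded Rac1 in every library, 3.88- and 2.94-fold in wild type and 3.26- and 2.73-fold in B7-H4-null, and these ratios overlapped between genotypes. The log2 ratio differed by −0.18 and turned to 0.019 without wild type replicate 1. The 2 genes are close paralogs, but the longest stretch of bases identical between their GENCODE M21 transcripts was 29 bases. No window of 50 bases in Cybb, Ncf4 or Rac1 transcripts occurred in a transcript of another gene. The shares were 2.39% for Cyba, 0.189% for Ncf1 and 0.484% for Rac2, counting the sense strand alone, so the bases opposite Gtf2ird2 and Daglb given above are not among them. The labels state no read length.

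**Figure D2:**
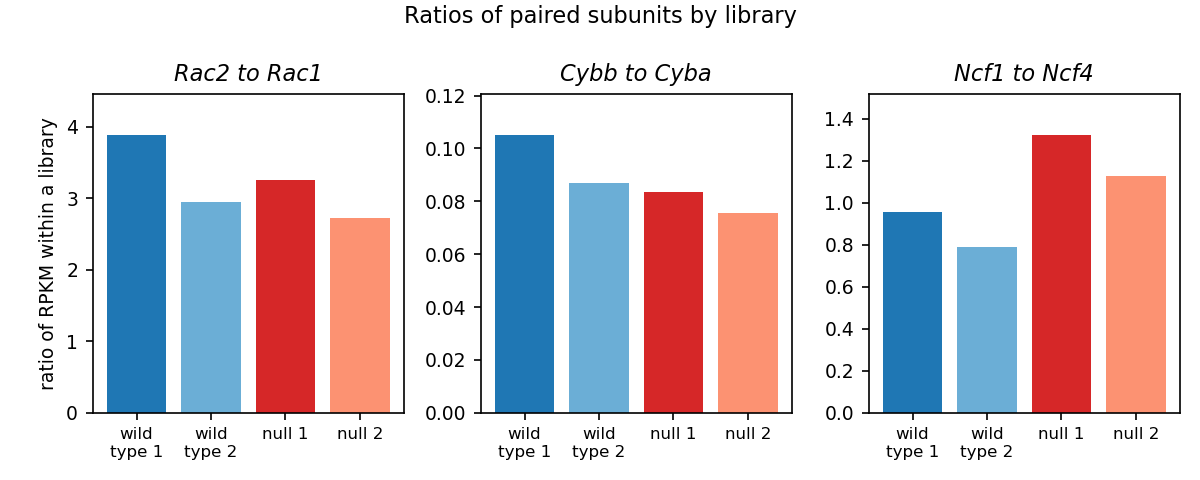
Ratio of RPKM within each library for Rac2 to Rac1, Cybb to Cyba and Ncf1 to Ncf4, 1 bar per library, each axis starting at 0. The Ncf1 to Ncf4 ratio was 0.957 and 0.787 in wild type and 1.32 and 1.13 in B7-H4-null.

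**Figure D3:**
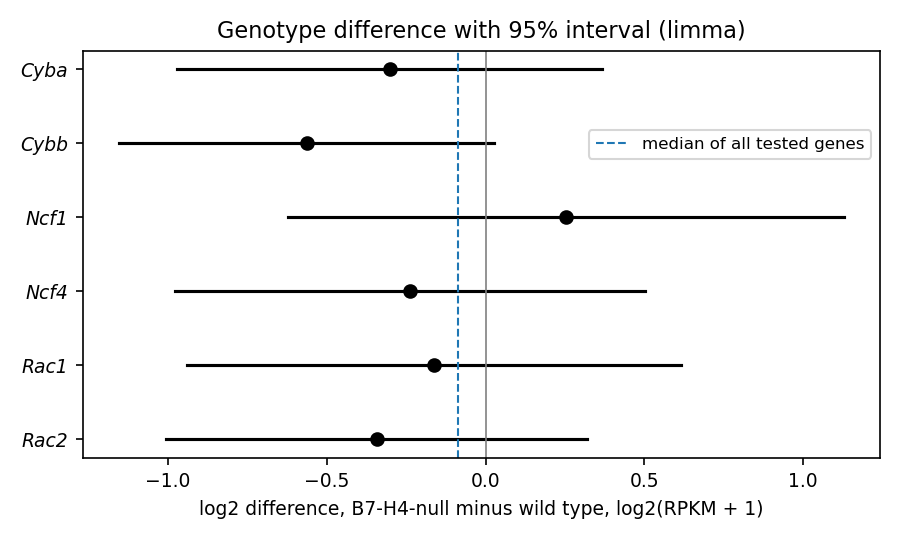
Log2 difference of B7-H4-null minus wild type for each oxidase gene on the log2(RPKM + 1) scale, as points with 95% intervals from limma over 4 libraries, and the median of all tested genes as a dashed line. All 6 intervals include 0, with Cybb at −0.56 reaching 0.03.

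Relative to its own mean over the libraries, the genes did not share one course. Cyba and Rac2 were nearly parallel: the root mean square difference between their centred log2(RPKM + 1) values over the 4 libraries was 0.0406, and 0.223% of tested genes were nearer to Rac2 than Cyba was. Cybb followed at 0.151 from Rac2 and 0.169 from Cyba, with 12.8% and 20.8% of tested genes nearer to them. Rac1 lay 0.176 from Cyba and 0.189 from Rac2. Ncf1 lay 0.276 from Ncf4, with 9.74% of tested genes nearer to Ncf1. It lay 0.512 to 0.623 from the other 4 genes, with 57.5% to 79.3% of tested genes nearer. Of the oxidase genes, Ncf4 was nearest to Cybb (0.258). With 4 libraries such distances describe these samples only.

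**Figure D4:**
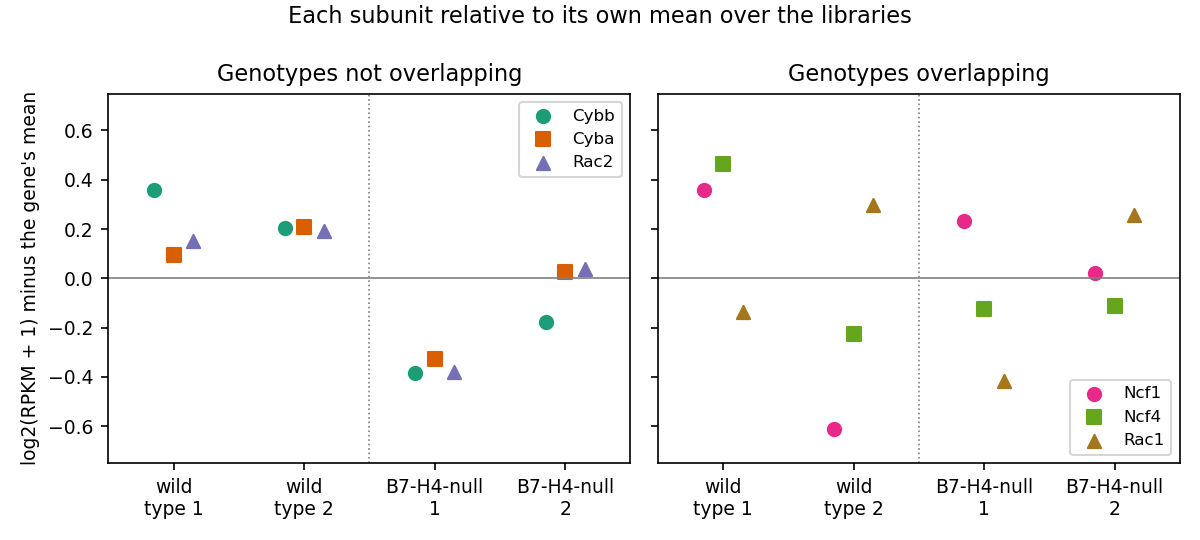
Log2(RPKM + 1) of each gene minus its mean over the 4 libraries, by library, with the genes whose genotypes did not overlap on the left and those that overlapped on the right. Cyba and Rac2 stay within 0.0406 of each other in root mean square, and Ncf1 has its lowest value, −0.61, in wild type replicate 2.

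By the same measure the tested genes most like Cyba were Chtop (0.00617), Ptpn4 and Tnfaip8l1, and those most like Rac2 were Tti2 (0.00968), Ankib1 and Tmem183a. Tnfsf13os (0.0217), Mfsd9 and Map4k5 were nearest to Cybb, and Ube2v1 (0.0167), Tomm22 and Tfg to Rac1. Vars2 (0.0187), Pkmyt1 and Ddx55 were nearest to Ncf1, and Atp8a1 (0.0301), Pecr and Galm to Ncf4. None of these 18 genes is an oxidase gene. Some were low, with means over the 4 libraries of 1.55 RPKM for Tnfsf13os, 1.82 for Mfsd9, 1.76 for Tnfaip8l1 and 2.30 for Ptpn4. At such levels log2(RPKM + 1) understates a change, so their likeness to Cybb or Cyba is not one of fold change.

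B7-H4-null replicate 1 was the lowest library for 4 of the 6 genes (Cybb, Cyba, Rac1 and Rac2), and wild type replicate 2 for Ncf1 and Ncf4. The same share over all tested genes was not counted. The median-ratio factor was lowest in B7-H4-null replicate 1 (0.929, against 1.01 to 1.05 in the other libraries), so genes in general lay low there. That library had the highest summed level of 9 early response and heat shock genes, listed as markers of handling (among them Fos, Jun, Egr1 and Hspa1a). The sum was 9040 RPKM against 4076 in B7-H4-null replicate 2 and 1718 and 2553 in wild type. Of those 9 genes, 8 were higher in both B7-H4-null libraries (16.0% of all tested genes). Whether this came from handling or from genotype was not tested. Of 15 genes of secondary and tertiary neutrophil granules and late neutrophils, 14 were lower in both null libraries (28.0% of all tested genes), and no marker was at 0. Their summed level was 31797 and 24336 RPKM in the wild-type libraries and 8638 and 12537 RPKM in the null ones. The summed level of 12 monocyte and macrophage genes was 999 and 1300.4 RPKM in the wild-type libraries and 1526 and 1739.7 RPKM in the null ones. Most of it was Ly6c2, at 843 and 1079 against 1201 and 1458 RPKM. Of 8 tested members, 4 were higher in both null libraries (16.0% of all tested genes), and Csf1r, Ccr2, Adgre1 and Mpeg1 overlapped. Among the members too low to be tested, C1qa, C1qc and Mrc1 were lower in both null libraries and C1qb overlapped. The part of these programs in the oxidase values was not tested.

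Of 14 other genes of the oxidase and its relatives, 6 reached the level tested. Cybb was the one catalytic chain at more than trace level: Nox1 stood at 0 to 0.119 RPKM, Duox1 and Duox2 at no more than 0.0233 RPKM, and Nox3 and Nox4 had no read in any library, where 3 reads in a gene of 2 kb would be 0.139 to 0.159 RPKM. Cybc1, the chaperone of the core, stood at 46.7 and 49.4 against 46.7 and 35.7 RPKM, with the wild-type libraries given first here and below (limma adjusted p = 0.754). Hvcn1, the proton channel that balances the charge moved by the oxidase, stood at 35.9 and 23.5 against 44.6 and 29.2 RPKM (limma adjusted p = 0.74). The proton channel gene overlapped between genotypes. The small GTPase genes Rap1a and Rac3 stood at 46.0 and 64.6 against 32.2 and 47.2 RPKM and at 2.38 and 2.52 against 2.46 and 1.20 RPKM (limma adjusted p = 0.585 and 0.715).

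Beyond the oxidase itself, 6 lists of genes that act around it were described. Over all 7 lists limma called 0 of 120 tested genes, as did limma-voom. An unadjusted p under 0.05 was reached by 6 of the 120 that were higher and 11 that were lower, against 5.05% and 7.2% of all tested genes. Among the listed receptors of the burst, 12 of 19 tested were lower in both null libraries and 1 was higher (28.0% and 16.0% of all tested genes). The median log2 difference was −0.49. The 1 higher gene was Fcgr2b, which encodes an inhibitory Fc receptor. That median was −0.78 without B7-H4-null replicate 2. The formyl peptide receptor Fpr1 stood at 2.91 and 5.48 against 0.160 and 1.05 RPKM (limma adjusted p = 0.229). C5ar1, the receptor of complement C5a, stood at 4.87 and 7.83 against 1.69 and 2.91 RPKM, and Tlr4, the receptor of lipopolysaccharide, at 3.07 and 4.47 against 0.828 and 1.71 RPKM (limma adjusted p = 0.299 and 0.307). The chemokine receptor Cxcr2 stood at 2.56 and 4.93 against 0.872 and 1.58 RPKM (limma adjusted p = 0.329). Cxcr2 is also among the late neutrophil genes above, which were lower in the same libraries.

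Of the kinases that act upstream of the oxidase, 11 of 23 tested were lower in both null libraries and 1 was higher (all tested genes 28.0% and 16.0%), with a median of −0.24. Prkcb, a protein kinase C that phosphorylates p47phox, stood at 33.8 and 26.8 against 14.8 and 13.9 RPKM, with a log2 difference of −1.02 (limma adjusted p = 0.25). The Src family kinase gene Fgr stood at 13.5 and 11.4 against 6.74 and 8.22 RPKM (limma adjusted p = 0.369). Pik3cd, a phosphoinositide 3-kinase of leukocytes, stood at 63.9 and 70.3 against 42.0 and 49.1 RPKM (limma adjusted p = 0.434). For each of these 3 genes the genotypes did not overlap.

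Of the exchange factors, GTPase-activating proteins and GDP dissociation inhibitors that control Rac, 7 of 20 tested were lower in both null libraries and 0 higher, a share of lower genes near the 28.0% of all tested genes, with a median of −0.22. Arhgdib, the inhibitor that holds Rac in the cytosol of blood cells, was the most abundant of the list at 2279 and 1814 against 1249.8 and 1634 RPKM (limma adjusted p = 0.563). The exchange factor genes Dock5 and Vav3 stood at 16.5 and 8.81 against 7.09 and 6.26 RPKM and at 16.3 and 18.6 against 10.9 and 14.4 RPKM (limma adjusted p = 0.417 and 0.555). Abr, a GTPase-activating protein of Rac, stood at 35.8 and 38.4 against 28.0 and 24.9 RPKM (limma adjusted p = 0.489).

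Transcription factors that are known to act on subunit genes lay on both sides, with 5 of 19 tested higher in both null libraries and 8 lower (16.0% and 28.0% of all tested genes), and a median of 0.07. Spi1, which encodes PU.1, stood at 327 and 421 against 203 and 308 RPKM and did not overlap (limma adjusted p = 0.529). Irf8, its partner at the Cybb gene, stood at 33.5 and 65.7 against 59.6 and 79.1 RPKM and overlapped (limma adjusted p = 0.603). Satb1, a chromatin organizer with the smallest p of the list, stood at 1.60 and 2.88 against 10.1 and 9.25 RPKM (limma adjusted p = 0.134). Cebpa, a factor of early granulocytes, stood at 46.9 and 63.7 against 106 and 92.2 RPKM (limma adjusted p = 0.328). Jun and Fos, which are also among the early response genes above, stood at 425 and 317 against 2621 and 982 RPKM and at 358 and 1038 against 2328 and 1526 RPKM (limma adjusted p = 0.224 and 0.328).

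Of 12 tested genes that supply NADPH, the electron donor, 3 were higher in both null libraries and 4 were lower, near the 16.0% and 28.0% of all tested genes, with a median of 0.13. Pgls of the pentose phosphate pathway stood at 155 and 192 against 249 and 319.9 RPKM, and the cytosolic isocitrate dehydrogenase gene Idh1 at 31.4 and 40.4 against 18.4 and 25.8 RPKM (limma adjusted p = 0.382 and 0.402). The mitochondrial enzyme genes Nnt and Idh2 stood at 38.3 and 38.9 against 54.4 and 55.0 RPKM and at 83.5 and 61.5 against 92.3 and 124 RPKM (limma adjusted p = 0.465 and 0.491). Of these 4 genes Idh1 was the one that was lower in both null libraries.

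Of the genes that remove or use superoxide and peroxide, 6 of 21 tested were higher in both null libraries and 2 were lower (16.0% and 28.0% over all tested genes), with a median of 0.03. Mpo, the myeloperoxidase that turns peroxide into hypochlorous acid, stood at 1194 and 979.8 against 2153 and 3388 RPKM (limma adjusted p = 0.256). Gsr, the glutathione reductase, stood at 763 and 861 against 479.5 and 633 RPKM (limma adjusted p = 0.492). The peroxidase gene Prdx1 stood at 43.5 and 62.9 against 73.3 and 78.4 RPKM, and Txnrd2, the mitochondrial thioredoxin reductase, at 10.7 and 6.18 against 12.1 and 12.4 RPKM (limma adjusted p = 0.503 and 0.544).

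**Figure D5:**
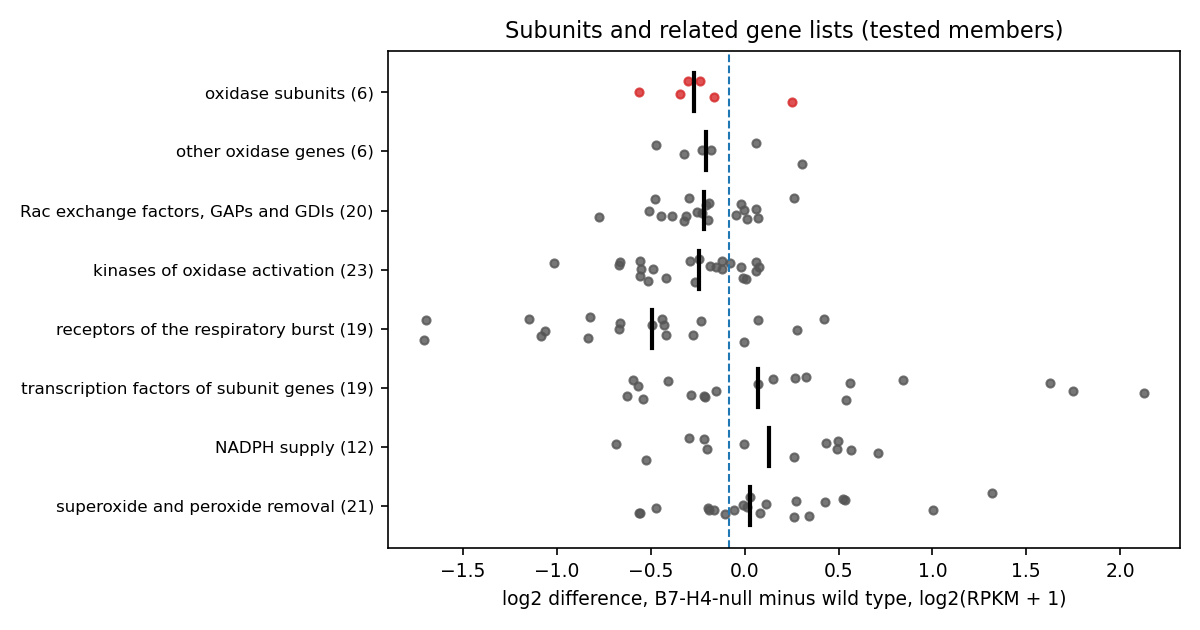
Log2 difference of B7-H4-null minus wild type for each tested gene, as 1 point per gene, for the 6 oxidase subunits (red) and 7 related lists (grey, number of tested genes in brackets), with each list's median as a black bar and the median of all tested genes (−0.086) as a dashed line. The receptors of the burst have the lowest median, −0.49.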

How the data were processed

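Per the submitters' processing notes, reads were aligned with TopHat2 2.0.12 to GRCm38. Neither the labels nor the table name the program that counted reads, its annotation or its strand setting. The authors deposited 1 table of RPKM values, a unit taken from the values, with a column per library. RefSeq symbols (GRCm38.p6) matched 25275 of 27179 gene IDs. Library totals and reads were recovered from the steps between low values. With them, 14606 of 14608 genes above 0 in every library were whole reads to within 0.001. The 12107 genes that reached 1 RPKM in 2 or more of the 4 libraries were tested with limma 3.58.1 in R 4.3.3 on log2(RPKM + 1). Genotype was the only term, with a mean-variance trend, two-sided tests and Benjamini-Hochberg adjustment at 0.05. This scale understates the change of low genes. The test was checked on simulated data, where larger changes were mostly recovered and false calls exceeded the nominal share. The floor of 3 reads covers counting error only.

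The oxidase genes and all lists were chosen with earlier results of these data known, so lists are described by counts and medians. Of each list up to 4 tested genes with the smallest p are named, and for each oxidase gene the 3 genes with the most alike values. Spi1, Irf8, Hmox1, the other Nox and Duox genes and Fc receptors were named after their values were seen, as were the genes opposite Ncf1 and Rac1. Of the listed genes, 4 were not matched in the table and are not analysed here, and some named by these rules are not reported here. Alternatives were another pseudocount (0.1), no filter, a filter at 5 RPKM, other scalings, no trend, limma-voom on recovered reads, a replicate block and leaving out each library.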

Additional observations from a re-analysis of the deposited data

How the results depend on the processing

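The oxidase genes stayed uncalled under every alternative run, with 68 of 72 differences in the same direction. The 2 filter settings, the fit with no trend and the replicate block leave each difference as it was. Their directions could therefore not turn, and the count overstates how far direction was put to the test. The direction turned for Ncf1, Ncf4 and Rac1 when a library was left out, with ranges of −0.23 to 0.74, −0.58 to 0.11 and −0.50 to 0.17. Under every alternative Cybb, Cyba and Rac2 stayed below 0, with leave-one-out ranges of −0.67 to −0.46, −0.48 to −0.13 and −0.55 to −0.13. Both null libraries lay below both wild-type libraries for these genes, so leaving out a library could not turn their direction. Over all genes, limma called 5 higher and 7 lower. Leaving out a library gave 0 to 36 higher and 0 to 20 lower, and no filter gave 0 and 0 (799 and 1088 by unadjusted p under 0.05). The replicate block gave 12 higher and 9 lower, and the smallest adjusted p of the oxidase genes was then 0.245. Deviations of same-numbered libraries correlated at r = 0.247 across genes, but with 2 pairs the samples share only a number. Median-ratio scaling moved the median of all genes from −0.086 to 0.00658.

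The medians of the lists depended on the processing as follows. With no filter they were 0.000935 for the other oxidase genes and −0.19 for the kinases. With median-ratio scaling they were −0.13 for the Rac regulators, −0.14 for the kinases and 0.17 for the transcription factors, and with quantile normalization −0.16 for the Rac regulators and −0.026 for the transcription factors. The leave-one-out ranges were −0.78 to −0.41 for the receptors of the burst, −0.25 to −0.017 for the other oxidase genes, −0.28 to −0.18 for the Rac regulators, −0.25 to −0.12 for the kinases, −0.18 to 0.29 for the transcription factors, −0.11 to 0.28 for NADPH supply and −0.039 to 0.25 for superoxide and peroxide removal. The cause was not tested. All 18 alternatives for the subunit ratios moved them by less than the SD between replicates, but this is no measure of stability. By the way this SD is computed, leaving out a library cannot move a ratio further than it. Reads per kilobase return the same ratios as RPKM. Leaving out a library gave −0.40 to −0.13 for Cybb to Cyba and −0.38 to 0.019 for Rac2 to Rac1. With 2 libraries a genotype, precision is limited by the spread between replicates more than by depth.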

Other observations

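The listed Fc receptor genes did not lie on one side, and the one that was higher in both null libraries encodes an inhibitory receptor. Fcgr2b, the inhibitory receptor, stood at 81.2 and 91.7 against 120.4 and 112 RPKM, with the wild-type libraries given first, while Fcgr4, an activating receptor, stood at 20.3 and 25.7 against 14.8 and 19.2 RPKM (limma adjusted p = 0.552 and 0.579). The activating receptor gene Fcgr3 overlapped between genotypes, at 147 and 289 against 266 and 237 RPKM (limma adjusted p = 0.791). Fcer1g, the signalling chain that activating Fc receptors use, also overlapped, at 359.7 and 482 against 336 and 514 RPKM. Hmox1, a heme oxygenase gene, was highest in B7-H4-null replicate 1, at 74.0 RPKM, and stood at 12.3 to 26.8 RPKM in the other 3 libraries. Its genotypes overlapped (limma adjusted p = 0.583), so the high value is that of 1 library.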
